A study of Mus musculus with 10 samples.

Results

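The genes described here are the cytosolic ribosomal proteins, which build the ribosomes that translate most messages of the cell. Members were chosen by name alone, as genes whose symbol begins with Rpl or Rps and a digit, or with Rplp, leaving out the S6 kinases. Of the 17097 genes with a probe set that carries a single symbol, 74 fit this rule. Each is represented by its brightest probe set over the 10 arrays. By role, 23 members belong to the small subunit, 38 to the large subunit and 3 to the stalk. A further 6 are paralogs, 3 carry pseudogene names, and 1, Rps19bp1, encodes a protein that binds Rps19 and is no subunit.

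The cells were CD4+ T cells from the spleens of DBA/1 mice, measured on Affymetrix mouse arrays in 4 groups. The first was CD4+ cells of naive mice (n = 2 arrays). The other 3 came from mice that received 500000 immature dendritic cells into the peritoneum at 7, 5 and 3 days before the spleens were taken: CD4+ cells (n = 2), CD4+ cells sorted for CD49b (n = 3) and CD4+ cells sorted for CD25 (n = 3). Labels give neither the age of the mice nor a genotype beyond the strain. Cells of several mice were pooled, and nothing in the labels says that replicates came from separate pools, so the p-values cover only how far these arrays scatter, part of which may be technical.

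Each cytosolic ribosome joins a small subunit, which holds the message and the decoding site, to a large subunit, which forms peptide bonds, and a flexible stalk of P proteins on the large subunit recruits elongation factors. In mammals the messages of these proteins typically begin with a C followed by a run of pyrimidines, the terminal oligopyrimidine (TOP) element, through which mTORC1 signalling adjusts their translation. T cells make many more ribosomes when activated, and the level of these messages is often read beside the growth state of a T cell.

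The sequence feature that the members share at the start of the gene is shown first, because it is independent of the measured values. The windows below run from 30 bases before to 20 bases from the annotated start onward, 5′ to 3′ on the sense strand, with runs of at least 8 consecutive C or T bases in capitals. They were read from the RefSeq promoter table of build GRCm38.p6. Rps6 (small subunit, chr4:86857348-86857397, minus strand), Rps18 (small subunit, chr17:33955646-33955695, minus strand), Rps25 (small subunit, chr9:44407684-44407733, plus strand) and Rpl35 (large subunit, chr2:39005112-39005161, minus strand) show the run near the start. Rpl22l1 (paralog of Rpl22, chr3:28805478-28805527, plus strand), Rpl12 (large subunit, chr2:32961682-32961731, plus strand) and Rpl36a (large subunit, chrX:134585624-134585673, plus strand) were among the members that fell in CD49b+ cells. Rps27l (paralog of Rps27, chr9:66946056-66946105, plus strand, one of 2 starts listed) rose. Rps25 was also called lower in CD49b+ cells. The genes shown include members named for their change, so the choice of windows is not independent of the values.
Rps6: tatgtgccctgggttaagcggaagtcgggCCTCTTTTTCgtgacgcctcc
Rps18: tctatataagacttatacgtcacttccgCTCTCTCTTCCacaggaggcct
Rps25: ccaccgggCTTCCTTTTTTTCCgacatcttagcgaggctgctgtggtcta
Rpl35: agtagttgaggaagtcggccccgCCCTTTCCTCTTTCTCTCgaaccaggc
Rpl22l1: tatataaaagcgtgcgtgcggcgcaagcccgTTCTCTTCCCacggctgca
Rpl12: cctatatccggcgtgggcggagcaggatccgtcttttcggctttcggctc
Rpl36a: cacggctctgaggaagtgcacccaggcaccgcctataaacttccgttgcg
Rps27l: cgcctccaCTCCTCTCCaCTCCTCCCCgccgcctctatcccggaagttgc

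In Rps6, Rps18 and Rpl35 the run spans the annotated start. In Rpl22l1 it begins just after the start, and in Rps25 and Rps27l it lies before the start. Rpl12 and Rpl36a have no run of this length inside the printed window. Within 50 bases either side of the start, 43 of the 50 subunit genes that matched the table by symbol (86.0%) held a run of at least 8 pyrimidines on the sense strand, against 39.3% of all 27025 genes listed. On the opposite strand the shares were 28.0% and 41.1%, so the surplus lay on the sense strand. The letters CTTTC, which overlap many of these runs, were found at 50% of the subunit genes and at 14.6% of all genes on the sense strand, and at 12% and 13.8% on the opposite strand. Mitochondrial ribosomal protein genes, whose products work in another ribosome, held the run at 34.8% of 69 genes. The 7 subunit genes without it were Rpl23, Rpl24, Rplp0, Rps13, Rps28, Rps3a1 and Rps4x. Of the tested subunit genes with a table entry, the 42 with a run had a median difference of -0.13 between CD49b+ and CD4+ cells of injected mice, and the 7 without it one of -0.10. Of these 42 and 7 genes, 10 and 0 were called lower, beside 23.5% of all genes tested. A match is only a description of letters in this window.

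The deposited values are log2 signals, so a difference of 1 is a 2-fold change. Genes dimmer than the array median on all but 1 array or on all arrays were not tested, and a gene was called when its Benjamini-Hochberg adjusted p in one limma fit over 11037 genes lay below 0.05. Of the 74 members, 72 were tested. The exceptions were Rpl3l, a muscle paralog of Rpl3, with a mean of 3.62, and Rps15a, with 4.28. The single Rps15a probe set was dim while that of Rps15a-ps6, a near-identical copy, had a mean of 13.12, and signal from these copies cannot be told apart. Of the 76 subunit genes listed, 12 are not analysed here.

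These messages were among the brightest on the arrays. Of the 63 tested subunit genes, 62 had a mean over 12, their median was 12.84 and the highest mean was 13.38, while the highest value on any array lay between 13.42 and 13.48. Rpl14 was the exception at 8.55. The members also varied little within a group: their median within-group SD was 0.03, against 0.12 for all genes tested.

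Sort markers were checked first. Cd4 had group means between 7.55 and 7.89 and Cd3e, a T cell receptor complex chain, between 9.45 and 9.62. Il2ra, which encodes CD25, was 8.83 ± 0.29 (SD, n = 3) in CD25+ cells, 6.29 ± 0.07 in CD49b+ cells (n = 3) and 4.17 ± 0.02 in CD4+ cells of injected mice (n = 2). Itga2, which encodes CD49b, was no higher in CD49b+ cells (5.78 ± 0.19, n = 3) than in CD4+ cells of injected mice (5.82 ± 0.04, n = 2), so its signal did not set them apart, though it exceeded that of CD25+ cells (5.47 ± 0.05, n = 3). The median of all probe sets was 4.79 to 4.81 on the 4 CD4+ arrays and 4.61 to 4.65 on the 6 subset arrays, so the choice of scaling matters for small differences.

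No ribosomal protein message was called changed in CD4+ cells after injection of immature dendritic cells. None of the 72 tested members was called higher and none lower, where 0.0272% of all genes tested were higher and 1.36% lower (3 and 150 genes). At an unadjusted p under 0.05 the count of members was also 0, beside 12.4% of all genes tested. The member differences had a median of -0.00 and ran from -0.28 for Rps27l to 0.11 for Rpl39l. Rps6, the small subunit protein phosphorylated by S6 kinase, was 13.17 and 13.21 in naive mice and 13.18 and 13.18 in injected mice. Rplp0, the stalk base, was 12.95 and 12.94 against 12.94 and 13.01. For both genes the arrays of the groups overlapped.

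In CD49b+ cells most ribosomal protein messages were slightly lower than in CD4+ cells of injected mice, and one paralog was much higher. The median difference of the 72 members was -0.10, against 0.03 for all genes tested, and 63 members lay below 0. Members called lower numbered 14 (19.4%), where 23.5% of all genes tested were called lower, and 2 were called higher, where the share of all genes was 29.9%. The share called lower was thus near the background. The arrays of the groups did not overlap for 63 members (87.5%), where the same was true of 70.3% of all genes. All 22 tested small-subunit genes lay below 0, with a median of -0.13 and 4 called lower. Of the 38 large-subunit genes 33 lay below 0, with a median of -0.10 and 9 called lower. The 3 stalk genes had a median of -0.09 and none was called, and the 3 members with pseudogene names were -0.14, -0.12 and -0.07, also not called. In bulk samples such as these, fewer cells of a type and less RNA per cell cannot be told apart.

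**Figure D1:**
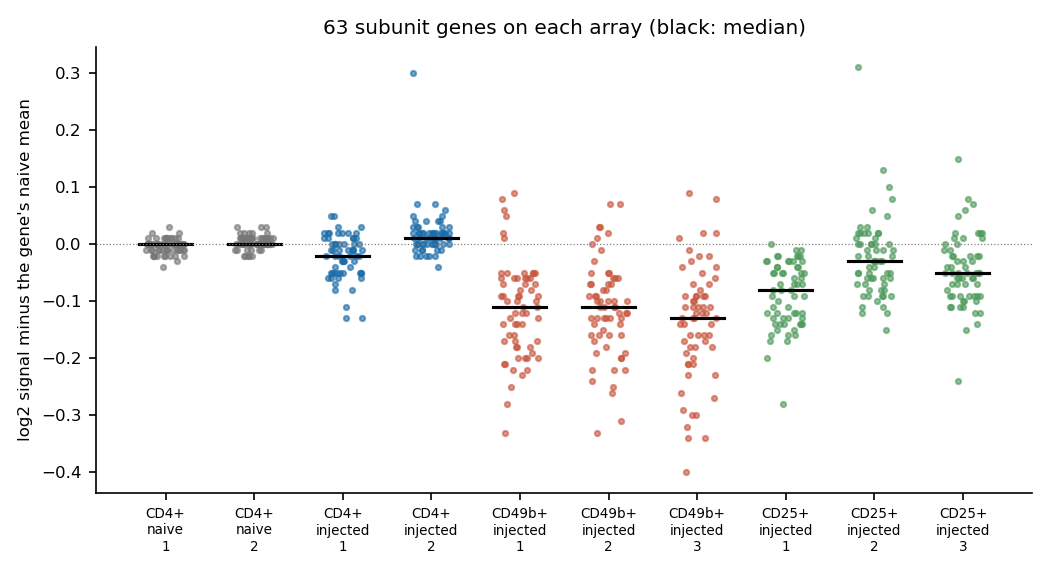
Log2 signal of the 63 tested subunit genes on each of the 10 arrays, each gene (point) relative to its own mean on the 2 naive arrays, with the median over genes in black. The medians are -0.11, -0.11 and -0.13 on the CD49b+ arrays, -0.08, -0.03 and -0.05 on the CD25+ arrays, and -0.02 and 0.01 on the CD4+ arrays of injected mice.

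In the values as deposited the shift was small and seen on every CD49b+ array, and with arrays centred on their median its direction turned, to a median of 0.09. The mean of the 62 bright subunit genes was 12.874 and 12.879 on the naive arrays and 12.857 and 12.890 on the CD4+ arrays of injected mice. It was 12.760, 12.761 and 12.738 on the CD49b+ arrays, and 12.792, 12.846 and 12.826 on the CD25+ arrays. The 3 CD49b+ arrays were the lowest of the 10, and no array of another group reached into their range. CD49b+ cells had the lowest mean of the 4 groups for 57 of the 72 members. For 50 members the means stood, from low to high, in the order CD49b+, CD25+ and CD4+ of injected mice.

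Members also moved together from array to array. The correlation of a member with the mean of the other members exceeded 0.8 for 47 of 72 and lay below 0 for 7, over 10 arrays that share the group structure, and it is given as a description. Outside the members, the genes most like the member mean by Pearson correlation over the same 10 arrays were Ltbr (0.993), a lymphotoxin receptor, Snrpg (0.982), a spliceosome core protein, Gucy1a1 (0.981), a guanylate cyclase subunit, Gm17455 (0.967) and Apex1 (0.965), a DNA repair nuclease. Ltbr, Gucy1a1 and Gm17455 were dim, with group means of 5.06 to 5.28, 4.62 to 5.02 and 4.75 to 5.19, near the array medians. These correlations use the values as deposited and were not tested under other scalings.

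In the small subunit, Rps19, a protein needed for maturation of the small subunit and mutated in Diamond-Blackfan anaemia, fell furthest. It was 12.83 and 12.86 on the CD4+ arrays of injected mice and 12.55, 12.49 and 12.46 on the CD49b+ arrays. The groups did not overlap, and the difference was -0.35 ± 0.07 (SE, limma adjusted p = 0.00249), a 1.27-fold fall. On the CD25+ arrays it was 12.63, 12.68 and 12.65, between the other groups. The other small-subunit genes called lower were Rps25 (-0.24), Rps9 (-0.22) and Rps2 (-0.20), and their limma adjusted p ran from 0.0169 to 0.0435. The call for Rps2 was lost when each gene's probe sets were averaged. Rps6 differed by -0.05 ± 0.07 (SE, limma adjusted p = 0.53).

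In the large subunit, Rpl36a had the greatest fall. Its values were 12.32 and 12.36 on the CD4+ arrays of injected mice and 11.98, 11.98 and 11.91 on the CD49b+ arrays. The groups did not overlap, and the difference was -0.38 ± 0.08 (SE, limma adjusted p = 0.00276), a 1.30-fold fall. Rpl8, which lies close to the peptidyl transferase centre, was 12.74 and 12.76 against 12.50, 12.50 and 12.46, a difference of -0.27 ± 0.07 (SE, limma adjusted p = 0.00943). Rpl12, which forms the base of the stalk with Rplp0, was 12.88 and 12.93 against 12.65, 12.67 and 12.63, a difference of -0.26 ± 0.07 (SE, limma adjusted p = 0.0117). For both genes every CD49b+ array lay below every CD4+ array, and both calls were lost without CD4+ replicate 2 (limma adjusted p = 0.0555 and 0.0751). The other large-subunit genes called lower were Rpl36 (-0.24), Rpl13 (-0.23), Rpl26 (-0.21), Rpl34 (-0.20), Rpl35a (-0.20) and Rpl30 (-0.19). Averaging each gene's probe sets removed the call for Rpl13. With the replicate number as a block 11 members were called lower, beside 24.1% of all genes, and Rpl30, Rpl34 and Rps9 lost their calls.

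Several large-subunit genes of known role were not called. Rpl3, which helps to form the peptidyl transferase centre, was -0.12 ± 0.07 (SE, limma adjusted p = 0.162). Rpl11, which with Rpl5 binds 5S ribosomal RNA and can bind Mdm2, was -0.07 ± 0.07 (SE, limma adjusted p = 0.448). Rpl10, which joins the subunit last, was -0.08 and Rpl39, which lines the exit tunnel, also -0.08, and neither was called. Rplp0, Rplp1 and Rplp2 were -0.07, -0.09 and -0.10, and none was called. The large-subunit genes on the other side of 0 were Rpl41 (0.10), Rpl37a (0.08), Rpl28 (0.04), Rpl24 (0.03) and Rpl29 (0.03), of which none was called.

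**Figure D2:**
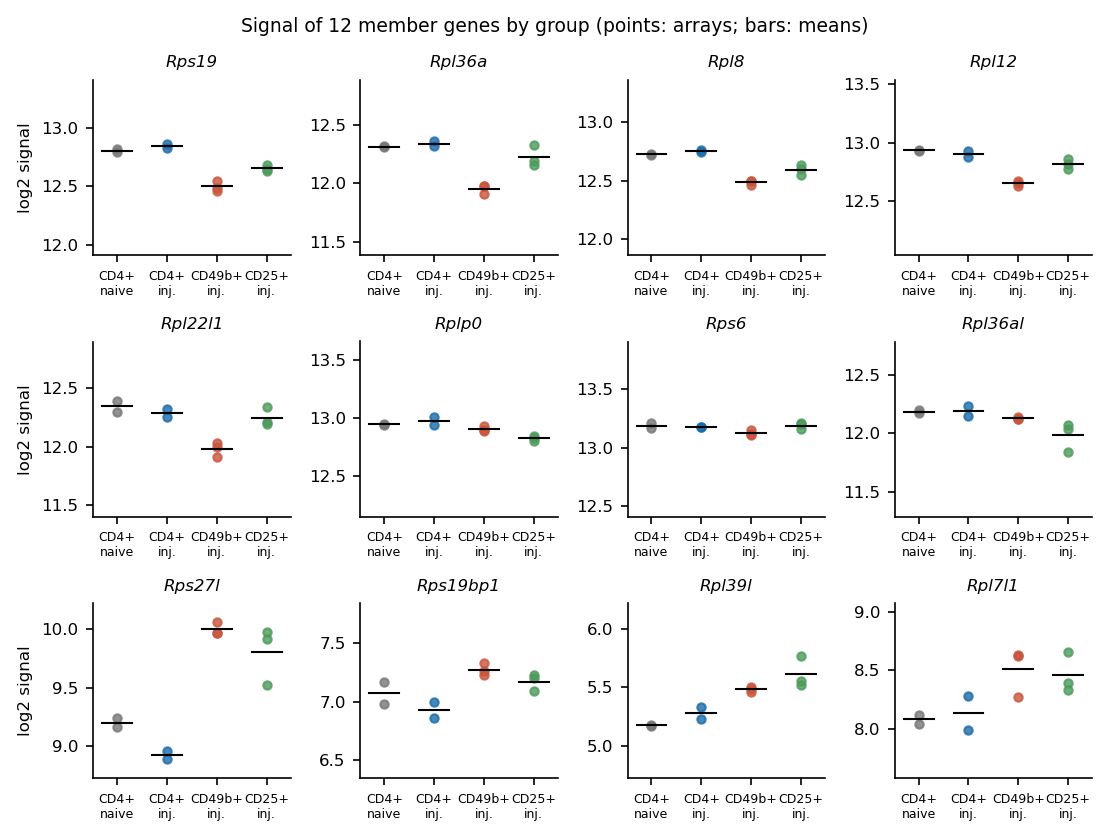
Log2 signal of 12 members in the 4 groups, 1 point for each array and bars for group means, each panel spanning the same 1.5 log2 units around its own middle. Rps19, Rpl36a, Rpl8, Rpl12 and Rpl22l1 are lowest on the CD49b+ arrays, while Rps27l lies at 8.89 to 9.24 on the CD4+ arrays and at 9.52 to 10.06 on the subset arrays.

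Paralogs, which can replace a core protein in some tissues or carry extra functions, did not follow the subunits as a group. Rps27l, a paralog of Rps27 known as a p53 target, was measured by the probe set 1435429_PM_x_at. It was 9.16 and 9.24 in naive mice, 8.89 and 8.96 in CD4+ cells of injected mice, 9.97, 9.97 and 10.06 in CD49b+ cells and 9.52, 9.98 and 9.92 in CD25+ cells. All 6 subset arrays lay above all 4 CD4+ arrays. In CD49b+ cells the rise was 1.08 ± 0.13 (SE, limma adjusted p = 9.67e-05), or 2.11-fold. In CD25+ cells it was 0.88 ± 0.13 (SE, limma adjusted p = 0.000531), or 1.84-fold. Both of these comparisons use the same 2 CD4+ arrays. The remaining 2 probe sets of Rps27l were also called higher in CD49b+ cells, by 1.01 and 1.13. CD49b+ and CD25+ cells differed by 0.20 ± 0.11 (SE, limma adjusted p = 0.227), and their arrays overlapped. The direction and both calls held under all 5 scalings of the arrays that were run, with differences of 0.94 to 1.27 in CD49b+ cells and 0.78 to 1.04 in CD25+ cells. Rps27 itself is not analysed here.

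Rpl22l1, the paralog of Rpl22, fell with the subunits. It was 12.25 and 12.32 in CD4+ cells of injected mice, 11.91 to 12.03 on the 3 arrays of CD49b+ cells and 12.19, 12.34 and 12.21 in CD25+ cells. The CD49b+ arrays were below all others, by -0.30 ± 0.08 against CD4+ cells (SE, limma adjusted p = 0.0118), a call that was lost without CD4+ replicate 2 (0.0779). Rpl22, which is needed in early T cell development and represses Rpl22l1, was -0.15 ± 0.08 by its brightest probe set (SE, limma adjusted p = 0.154). Its dimmer probe set, which shares probes among transcripts, was 7.85 and 8.17 in CD4+ cells and 7.26, 7.10 and 7.17 in CD49b+ cells, and it was called lower by 0.83 on the log2 scale.

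Rpl36al, the autosomal paralog of Rpl36a, was 12.15 and 12.23 in CD4+ cells of injected mice, 12.14, 12.12 and 12.12 in CD49b+ cells and 11.84, 12.07 and 12.04 in CD25+ cells. It was not called: the differences were -0.06 ± 0.09 in CD49b+ and -0.20 ± 0.09 in CD25+ cells (SE, limma adjusted p = 0.577 and 0.0877). Rpl36a and Rpl36al thus had their lowest mean in different subsets, a contrast that was not tested. Rpl39l, a paralog of Rpl39 known from testis, was close to the level of dim genes. It was 5.33 and 5.23 in CD4+ cells of injected mice and 5.52, 5.55 and 5.77 in CD25+ cells, where it was called higher by 0.33 ± 0.09 (SE, limma adjusted p = 0.0159). In CD49b+ cells it was 0.20 higher and not called. The call in CD25+ cells was lost without replicate 2 of the CD4+ cells (0.28, limma adjusted p = 0.109). Rpl7l1, a paralog of Rpl7, was 0.37 ± 0.15 higher in CD49b+ cells (SE, limma adjusted p = 0.054), and its arrays overlapped. It was called without CD4+ replicate 1 (0.52), CD49b+ replicate 2 (0.49) or CD25+ replicate 3 (0.37). Of its other probe sets, 1 was called higher in CD49b+ (0.63) and CD25+ cells (0.53), and the dimmest was called in neither.

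Rps19bp1, which binds Rps19 and helps to activate the deacetylase Sirt1, moved opposite to Rps19. It was 6.86 and 7.0 in CD4+ cells of injected mice and 7.26, 7.33 and 7.23 in CD49b+ cells, a rise of 0.35 ± 0.09 (SE, limma adjusted p = 0.00971). The arrays did not overlap. Without replicate 1 of the CD4+ cells the rise was 0.28 and was not called (limma adjusted p = 0.0878). In CD25+ cells it was 0.24 ± 0.09 (SE, limma adjusted p = 0.0595), and with the replicate number as a block the adjusted p was 0.0433. With the naive numbers crossed in that block it was not called.

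The member call counts in CD49b+ cells changed when some single arrays were left out. Leaving out either CD4+ array of the injected mice leaves 1 array in that group, where fewer members were called lower. The member median was then -0.12 without replicate 1 and -0.09 without replicate 2. Without the CD49b+ replicates 1 and 3 the 14 lower calls became 9 and 6, beside 21.6% and 20.1% of all genes. Higher calls numbered 4 without CD25+ replicate 3, beside 29.7% of all genes. Rpl39l and Rpl7l1 there joined Rps27l and Rps19bp1. A limma fit in which the prior spread follows the mean signal and is robust to outliers called 38 members lower, beside 23.9% of all genes, with the same median of -0.10. The members' median SE of 0.070 under the common prior exceeds their within-group SD.

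Of the 5 scalings only median centring turned the direction of the members' median in CD49b+ cells. It was -0.06 after quantile normalization and -0.10 with arrays centred on their 75th percentile. Median centring of each array raised the difference of all genes tested from a median of 0.03 to 0.22 and that of the members from -0.10 to 0.09. None of the members was then called lower, and 9 were called higher, beside 44.3% of all genes. With arrays centred on their mean over the tested genes, 51 members were called lower, beside 32.2% of all genes, at a median of -0.21. The median of all genes was then -0.07, so under both centrings the members' median lay below that of all genes. Against CD25+ cells the median difference of the members stayed below 0 under each of the 5 scalings. Gapdh 3′ minus 5′ signal, a measure of RNA integrity or labelling, was 0.46 ± 0.23 in CD49b+ cells (SD, n = 3) and 0.20 ± 0.09 in CD4+ cells (SD, n = 2) and 0.52 ± 0.13 in CD25+ cells (SD, n = 3). The same measure for Actb was 0.50 ± 0.06 in CD49b+ cells (SD, n = 3), 0.53 ± 0.04 in CD4+ cells (SD, n = 2) and 0.64 ± 0.02 in CD25+ cells (SD, n = 3). The part of either in the result was not tested.

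**Figure D3:**
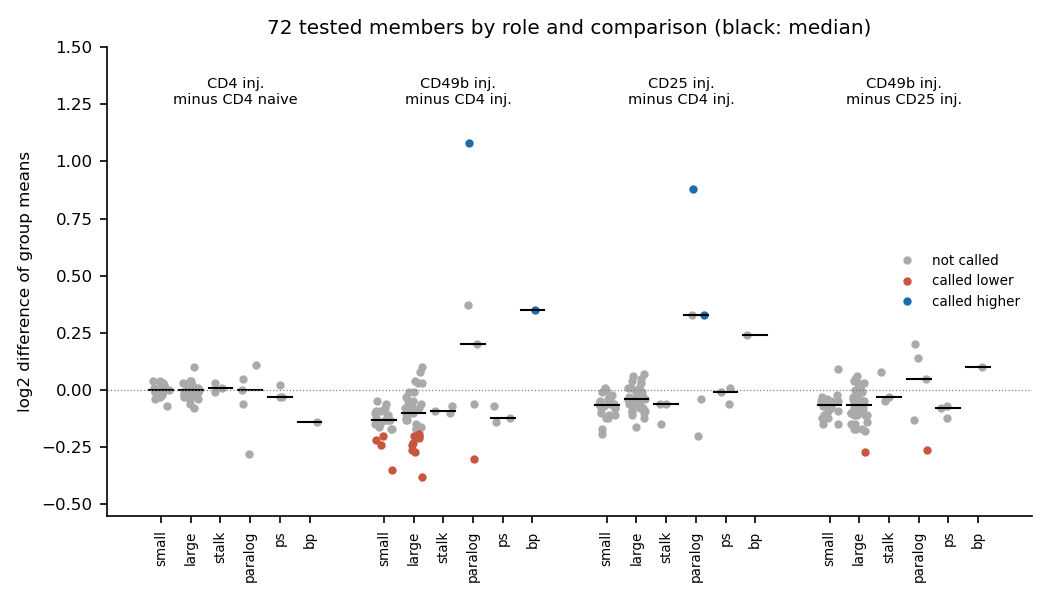
Log2 differences of the 72 tested members in 4 comparisons, split by role (small, large, stalk, paralog, ps for pseudogene names, bp for the binding protein), with called members in colour and medians in black. Calls lower are seen in CD49b+ cells, 14 against CD4+ cells and 2 against CD25+ cells, and Rps27l stands highest at 1.08 and 0.88.

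The further probe sets of a subunit gene mostly lay lower than its brightest one in this comparison. Counting every tested probe set of the members (127), 33 were lower and 6 higher in CD49b+ than in CD4+ cells, beside 23.3% and 27.5% of all probe sets tested. Among the 31 tested subunit genes with further tested probe sets, 36 of those 51 further probe sets had a more negative difference than the brightest one. Their median was -0.17, against -0.10 for the brightest probe sets of the same genes.

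Rps21, a small-subunit protein, shows the pattern over 4 probe sets. At mean signals of 13.07, 12.84, 12.68 and 10.51 the differences were -0.09, -0.15, -0.24 and -0.72. The dimmest of them, 1439415_PM_x_at, was 10.85 and 10.92 in CD4+ cells of injected mice, 10.14, 10.27 and 10.08 in CD49b+ cells and 10.39, 10.47 and 10.36 in CD25+ cells. It separated the 3 groups without overlap and was called lower in both subsets. Rpl37, a zinc-binding large-subunit protein, had differences of -0.16, -0.12, -0.43 and -0.68 at mean signals of 12.81, 12.67, 10.76 and 6.78.

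Some dim probe sets went their own way. The second Rpl11 probe set, with a mean signal of 5.28, was 6.14 and 6.12 in CD4+ cells of injected mice, 4.69, 4.52 and 4.51 in CD49b+ cells and 5.0, 4.94 and 4.74 in CD25+ cells, while the bright one differed by -0.07 and 0.03 and was called in neither subset. The second Rpl13 probe set, with a mean signal of 7.83 and probes shared among transcripts, was 7.47 and 7.35 in CD4+ cells and 8.59, 8.60 and 8.62 in CD49b+ cells, the opposite direction to the bright one. Which of these probe sets reads the main transcript was not tested. Probe sets whose names end in x_at, which may bind other sequences too, represent 20 members, and s_at probe sets, whose probes fit several transcripts, represent 7.

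**Figure D4:**
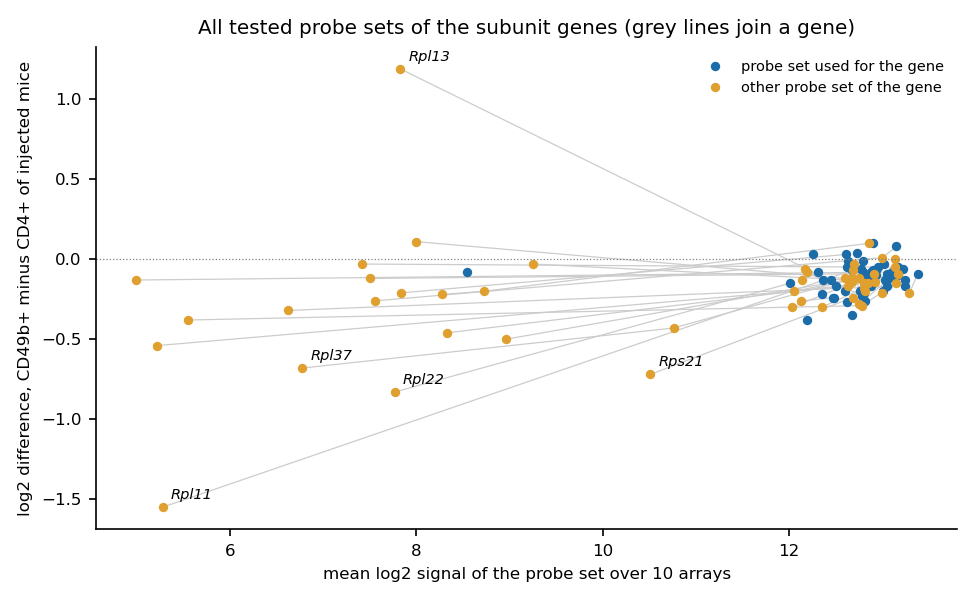
Log2 difference between CD49b+ and CD4+ cells of injected mice against mean log2 signal for every tested probe set of the subunit genes, with grey lines joining probe sets of the same gene. The bright probe sets crowd near -0.10 at the top of the scale, while dimmer ones reach -1.55 (Rpl11) and 1.19 (Rpl13).

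In CD25+ cells no subunit gene was called under the common prior. Of the 72 members, 2 were called higher, Rps27l and Rpl39l, where 20.8% of all genes tested were, and none was called lower, where 17.8% of all genes were. At an unadjusted p under 0.05 the count of members was 8 of 72, beside 48.0% of all genes tested. The median difference from CD4+ cells was -0.05, and 56 members lay below 0. Rps19 was -0.19 ± 0.07 (SE, limma adjusted p = 0.0527) and Rplp0 was -0.15 ± 0.07 (SE, limma adjusted p = 0.122), with no overlap of arrays for either. Rplp0 was 12.80, 12.85 and 12.83 in CD25+ cells and 12.89, 12.93 and 12.90 in CD49b+ cells, so the CD25+ arrays lay lower here. Median centring turned the direction in CD25+ cells as well, to a median of 0.11 with 8 members called higher, beside 35.8% of all genes.

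Set against each other, CD49b+ cells had less of 2 members than CD25+ cells, where 12.4% of all genes tested were lower, and more of none, where 17.5% of all genes were higher. At an unadjusted p under 0.05 the count of members was 9 of 72, beside 40.2% of all genes tested. With the prior that follows the mean signal 14 members were called lower, beside 12.5% of all genes. Rpl36a was 12.16, 12.33 and 12.19 in CD25+ cells, above every CD49b+ array, and differed by -0.27 ± 0.07 (SE, limma adjusted p = 0.0166). Rpl22l1 differed by -0.26 ± 0.07 (SE, limma adjusted p = 0.0222), also without overlap. Both calls were lost without CD49b+ replicate 3 (-0.25 and -0.23) or without CD25+ replicate 2 (-0.22 and -0.22). The median over the members was -0.06, and 60 lay below 0.

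The genes that make, relate to or control ribosomes are given from lists, beside the 23.5% of all genes tested that were lower and the 29.9% that were higher in CD49b+ than in CD4+ cells of injected mice. Of 56 tested ribosome biogenesis genes 20 were lower (35.7%) and 4 higher (7.14%), with a median of -0.17. Fbl, the methyltransferase of ribosomal RNA, fell from 10.74 ± 0.21 (SD, n = 2) to 9.86 ± 0.19 (SD, n = 3), by -0.88. Nolc1, a nucleolar chaperone, fell by 0.61 on the log2 scale. Under median centring 8 genes of this list were lower and 14 higher, beside 12.3% and 44.3% of all genes. The list median was then 0.03, below the 0.22 of all genes. Of 12 RNA polymerase I genes 2 were higher (16.7%) and 3 lower (25%), among them Polr1e (0.79) and Polr1a (-0.56), the second of which was not called after median centring.

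Other messages with TOP elements, mostly translation factors, split. Of 18 tested, 6 were lower (33.3%) and 2 higher (11.1%) in CD49b+ cells. Eef1g, an elongation factor subunit, fell by 0.48 on the log2 scale, and Gas5, a host RNA of nucleolar RNAs, by 1.03. Vim, which encodes vimentin, rose by 1.22. These 3 calls held under all 5 scalings. Of 18 tested genes of the mTORC1, S6 kinase and Myc circuit 6 were higher (33.3%) and 5 lower (27.8%), shares near those of all genes. Deptor, an inhibitor of mTOR, was 3.84 ± 0.02 (SD, n = 2) in CD4+ cells and 5.99 ± 0.21 (SD, n = 3) in CD49b+ cells, and Eif4ebp1, the repressor of cap-dependent translation, rose by 1.33. Sesn1, a sestrin, a class of proteins that restrain mTORC1, fell by 1.2 on the log2 scale. Rpsa, a small-subunit protein named outside the rule, was -0.18 (limma adjusted p = 0.0475) and lost its call under 3 of the other 4 scalings, with a difference of 0.01 after median centring.

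Mitochondrial ribosomal proteins, which are encoded in the nucleus and build the ribosomes of mitochondria, had a median of 0.31 in CD49b+ against CD4+ cells of injected mice. Of 72 tested genes 34 were higher (47.2%, beside 29.9% of all genes) and 2 lower (2.78%, beside 23.5%). The cytosolic count was 2 higher and 14 lower, with a median of -0.10. Mrpl27 was 7.76 ± 0.16 (SD, n = 2) in CD4+ cells and 9.24 ± 0.05 (SD, n = 3) in CD49b+ cells, a rise of 1.48, and Mrpl33 rose by 1.03. In CD25+ cells 14 mitochondrial ribosomal protein genes were higher (19.4%, near the 20.8% of all genes) and 2 lower (2.78%, beside 17.8%), with a median of 0.14. Between the subsets 19 were higher (26.4%, beside 17.5% of all genes) and 3 lower (4.17%, beside 12.4%) in CD49b+ cells, with a median of 0.19, though Mrps6 was 1.19 lower on the log2 scale. The mitochondrial median stayed above the cytosolic one under all 5 scalings, and the mitochondrial one stayed above 0. Among the 57 other genes with means over 12, which share the members' range, 22 were higher and 5 lower in CD49b+ cells, with a median of 0.14.

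**Figure D5:**
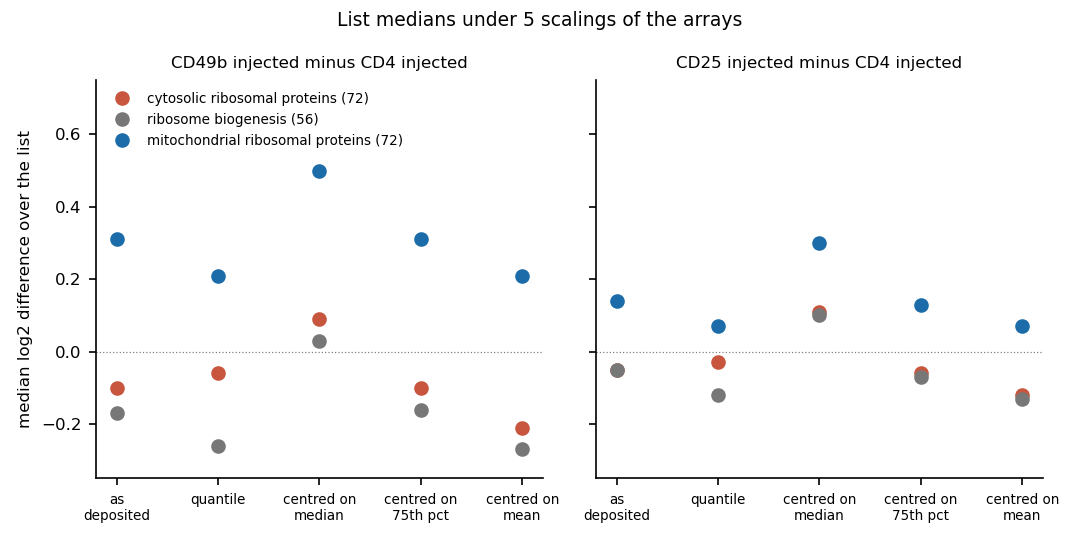
Median log2 difference over 3 gene lists in CD49b+ (left) and CD25+ cells (right) against CD4+ cells of injected mice, under 5 scalings of the arrays. The cytosolic median lies at -0.10 as deposited and at 0.09 after median centring in CD49b+ cells, while the mitochondrial median lies between 0.21 and 0.50.

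Markers of other cells also differed between the groups. Between naive and injected mice, where no ribosomal protein gene was called, the mean level of B cell markers went from 6.30 to 5.71 and that of myeloid and dendritic cell markers from 5.74 to 5.19, with 4 of 6 tested genes called lower in each list. Of all genes tested 1.36% were called lower in this comparison. The natural killer cell marker mean was 5.31 and 5.18 and the erythroid one 5.36 and 5.17, with none called. The mean level of 9 B cell markers was 5.63 to 5.79 on the CD4+ arrays of injected mice, 4.96 to 5.17 on the CD49b+ arrays and 5.73 to 5.99 on the CD25+ arrays, and of the 6 tested 1 was higher and 4 lower in CD49b+ than in CD4+ cells. Among all genes tested 29.9% were higher and 23.5% lower in CD49b+ than in CD4+ cells of injected mice. The mean level of 10 myeloid and dendritic cell markers was 5.15 to 5.24, 4.81 to 4.93 and 5.03 to 5.21, with 1 of 6 higher and 3 lower in CD49b+ cells. That of 9 natural killer cell markers was 5.14 to 5.23, 5.68 to 5.97 and 4.93 to 5.28, with 4 of 7 higher and 2 lower in CD49b+ cells, among them Gzma, a granzyme also made by effector T cells, which rose by 3.97. The mean level of 4 erythroid markers was 5.10 to 5.23, 4.89 to 5.02 and 4.95 to 5.19, with none of 2 called. Their part in the ribosomal protein differences was not tested.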

How the data were processed

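The table the authors deposited holds log2 values for 45141 probe sets. The submitters' processing notes name GCRMA and Affymetrix Expression Console 1.2.1, without order or settings. RNA (100 ng) was labelled for 3′ expression arrays, per the labels' protocols. The sources used here do not state whether all arrays were normalized jointly. For arrays, their number limits the precision. After 104 control probe sets were set aside, 28898 had 1 symbol, and 15 probe sets that name a member beside other genes were left out. Of the 17097 genes, 11037 were tested and 6060 were set aside as dim.

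Group means were compared with limma 3.58.1 in R 4.3.3 (two-sided, 6 residual degrees of freedom). Benjamini-Hochberg adjustment ran over the genes of a comparison, and the fit was checked on simulated data. A gene was tested when 2 or more arrays exceeded their 50th percentile. Named members were the 5 highest and 5 lowest called with arrays that do not overlap, and Rps6, Rpl3, Rpl10, Rpl11, Rpl22, Rpl39, the stalk genes, the paralogs and Rps19bp1 in every comparison. Up to 3 called genes of each further list, by size of difference, could be named. Other genes are named to complete a count, and Rps21, Rpl37 and Rpl13 after their probe sets were seen. The members, lists and rules were chosen with earlier results of these data known. Deviations of same-numbered arrays correlated at 0.158, 0.366 and 0.641 between CD49b+ and CD25+ cells, and those of unlike numbers at -0.5 to 0.135. Replicate 2 of the CD4+ cells of injected mice correlated with replicate 2 of CD49b+ and CD25+ cells at 0.522 and 0.531. Replicate 1 did so with replicate 1 at 0.088 and 0.245, and with replicate 3 at 0.446 and 0.308. The reported fit has no replicate block, so its p-values use no pairing, and the block was run as an alternative.

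Alternatives were other filters, scalings, eBayes priors, summaries of probe sets, weighted arrays, a replicate block, only the groups compared and each array left out. The centrings on the 75th percentile and on the mean, the subunit genes alone and the crossed block were added after the data were seen. Promoter sequences are RefSeq's (GRCm38.p6).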

Additional observations from a re-analysis of the deposited data

How the results depend on the processing

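Counts are given as members higher and lower in CD49b+ against CD4+ cells of injected mice, then in CD25+ against CD4+ cells, then in CD49b+ against CD25+ cells (2 and 14, 2 and 0, 0 and 2 as reported). With no filter on dim genes the lower counts were 25, 4 and 5, beside 32.7%, 29.1% and 8.46% of all genes. With a filter at the 70th percentile 1 member was higher in CD25+ cells, beside 23.9% of all genes. Quantile normalization gave 9 and 1 lower, beside 20.5% and 15.1% of all genes, and a median of -0.06 in CD49b+ cells. Median centring gave 9 higher and 0 lower (median 0.09), then 8 higher (median 0.11), and a median of -0.03 between the subsets. Of all genes 44.3% were then higher and 12.3% lower in CD49b+ cells, and 35.8% higher in CD25+ cells. The 75th percentile gave 8 lower in CD49b+ cells and 0 between the subsets, beside 21.7% and 11.6% of all genes. Its member median for injected against naive mice was 0.05. The mean over tested genes gave 51 lower (median -0.21), then 1 higher and 9 lower (median -0.12), then 8 lower. Of all genes 32.2% were lower, then 17.0% higher and 24.1% lower, then 14.2% lower. The member median for injected against naive mice was 0.06. Averaging each gene's probe sets gave 4 higher and 25 lower (median -0.13), then 4 and 5, then 1 and 8. Of all genes 28.5% were higher and 24.9% lower, then 18.7% and 19.4%, then 18.8% and 12.4%. Every probe set gave 6 and 33, then 5 and 7, then 1 and 7. The lower shares of all probe sets tested were 23.3%, 17.9% and 10.5%. Of all 17123 probe sets tested, 4715, 3062 and 2734 were higher. The trended, robust prior gave 38, 8 and 14 lower of the 72 members. Of all 11037 genes tested, 2635, 1989 and 1376 were then lower. Only the arrays of the groups compared gave 5 lower, then 1 higher, then 1 lower, beside 21.5%, 16.7% and 10.3% of all genes. The subunit genes alone gave 0 higher in both subsets and 1 lower between them. Causes were not tested.

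Leaving out 1 subset array at a time gave 6 to 14 lower and 2 to 4 higher in CD49b+ cells. It gave 2 to 3 higher in CD25+ cells, and 0 to 2 lower between the subsets. The shares of all genes were 20.1% to 23.9% and 26.4% to 30.4%, then 17.6% to 20.9%, then 9.79% to 12.7%. Without CD4+ replicate 1 or 2 of the injected mice, which leaves 1 array, the CD49b+ median was -0.12 or -0.09. Rpl11 reversed in CD25+ cells, to -0.60, when its probe sets were averaged, where the dim probe set counts equally. With the replicate block the counts were 2 and 11, 3 and 0, and 0 and 2. With the naive numbers crossed they were 3 and 11, 2 and 0, and 0 and 2. For injected against naive mice they were 0 and 0 in either fit. With the block the shares of all genes were 32.0% and 24.1%, 24.0% and 18.8%, and 21.3% and 15.2%. In the crossed fit the shares were 32.5% and 25.2%, 24.8% and 19.8%, and 21.8% and 16.1%. Groups of 2 and 3 arrays and signals near the top of the scale limit what small differences can show.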
